A study of Homo sapiens with 10 samples.

Results

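Interferons are secreted proteins that cells release when they sense foreign or misplaced nucleic acid. Sensors such as RIG-I (gene DDX58) and MDA5 (IFIH1) for RNA in the cytosol, and cGAS (CGAS) with its adaptor STING (TMEM173) for DNA, act through the kinase TBK1 on the transcription factors IRF3 and IRF7, which switch on interferon genes. Interferon then acts through cell-surface receptors on a factor built of STAT and IRF9 proteins, which binds interferon-stimulated response elements (ISREs) in promoters and raises a set of antiviral genes. 52 genes of this system were described here, chosen by symbol as interferon-stimulated genes and nucleic acid sensors, out of 58735 genes in the deposited count table. The choice was made with earlier results of these data known. All 52 symbols were found, each in 1 row.

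Poly(A) RNA was sequenced from the human meningioma line CH157-MN, an established culture. Of the 10 libraries, 5 came from cells given PBS, the vehicle. The other 5 came from cells given 100 nM of a humanised antibody-drug conjugate (ADC), harvested 3 days later, in which an antibody against the somatostatin receptor SSTR2 carries the tubulin inhibitor MMAF. All libraries are of 1 cell line, the labels give the harvest day for treated cells alone, and no unconjugated antibody or free MMAF group was analysed here. The labels do not say whether replicates were separate cultures, so p-values measure only the spread between these libraries, which may be technical.

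Total counts ran from 28262162 to 34473795 per PBS library and from 28638057 to 36463724 per ADC library. Levels are CPM, counts scaled to a common library total with TMM (trimmed mean of M-values) factors, and comparisons between genes use CPM per kilobase of exon. In these libraries 3 counts, the most that an observed 0 allows, came to 0.0820 to 0.106 CPM, a limit that covers counting error only. For SSTR2, the antibody's target, PBS libraries held 3 to 22 counts each and ADC libraries 10 to 20. Of 10 markers of meningioma and arachnoid cells, SSTR2 among them, VIM stood at 3398 ± 123 CPM in PBS (SD, n = 5). LEPR held 35 to 54 counts in each PBS library and 46 to 79 in each ADC library. For MUC1 these were 2 to 19 and 11 to 33, and for CRABP2 2 to 12 and 3 to 15. PTGDS, CDH1, DSP, PGR and SLC6A20 had at most 4 counts in any library. Of the 10 markers 4 were tested, and none was called. Of 19 leukocyte markers 11 had 0 counts in all 10 libraries, and the defining marker PTPRC had 2 counts at most. Their summed level was 0.886 to 2.82 CPM in PBS and 2.16 to 3.01 CPM in ADC libraries, most of it CSF1R at 1.26 ± 0.68 and 2.1 ± 0.34 CPM (SD, n = 5). The part of these low levels in the results below was not tested.

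To show the element through which interferon is known to act, the promoter windows of RefSeq (GRCh38.p14, 250 bases before to 50 after each transcript start) were searched on both strands for the ISRE core GAAANNGAAA. Windows were found for 40 of the 52 genes, and 25 of the 40 held the core. Below are cores that lie before the start of 6 genes that rose after ADC (IFIT1, IFIT3, IFITM3, SAMD9, PARP14, LGALS3BP) and of 3 that did not pass the test (ISG15, IFI44, OAS3), with the core in capitals as read on the gene's own strand. A core in the opposite orientation reads TTTCNNTTTC.
IFIT1, 116 to 107 bases before the start: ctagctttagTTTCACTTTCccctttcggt
IFIT1, 103 to 94 bases before the start: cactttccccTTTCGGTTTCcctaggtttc
IFIT3, 156 to 147 bases before the start: agccgttaggTTTCATTTTCctcctcccaa
IFIT3, 122 to 113 bases before the start: tttaaattagTTTCACTTTCcagtttcctc
IFITM3, 35 to 26 bases before the start: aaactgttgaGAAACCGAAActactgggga
SAMD9, 136 to 127 bases before the start: tctgagaaatGAAACTGAAAccaaacctat
PARP14, 29 to 20 bases before the start: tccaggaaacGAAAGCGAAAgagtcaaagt
LGALS3BP, 58 to 49 bases before the start: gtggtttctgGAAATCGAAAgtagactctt
ISG15, 107 to 98 bases before the start: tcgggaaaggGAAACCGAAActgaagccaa
IFI44, 60 to 51 bases before the start: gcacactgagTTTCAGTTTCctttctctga
OAS3, 143 to 134 bases before the start: agaaagaaacGAAACTGAAAgcagggaatt
In genome coordinates, the first IFIT1 stretch is chr10:89392497-89392526 on the plus strand and the IFITM3 stretch is chr11:320876-320905 on the minus strand. The ISG15 stretch is chr1:1013380-1013409 and the IFI44 stretch chr1:78649761-78649790, both on the plus strand.

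The core was present in 29 of 52 windows of the 40 genes (55.8%), against 3.57% of all 35116 windows and 2.89% of the 14714 windows of genes tested. The related gamma-activated site TTCNNNGAA, which STAT dimers bind, was present in 13 of the 52 windows (25.0%), against 7.66% of all windows. Both searches describe letters only, and the motifs can overlap each other or themselves. Since the genes were chosen as interferon-stimulated genes and sensors, these shares describe that choice and not the response to ADC. Windows of the same gene can share a site, as the 2 windows of IFI44 do. By call, the core was present in 6 of the 10 matched genes that rose, in 15 of the 20 that were tested and not called, and in 4 of the 9 that were too low to test.

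The comparison of ADC with PBS asked which of these genes differed after exposure to the conjugate. Small increases were called across several roles, with OASL highest by fold, and the DNA sensor gene CGAS was lower. Of the 52 genes, 39 had enough counts to be tested, and edgeR's quasi-likelihood test with Benjamini-Hochberg adjustment over 14504 genes called 14 higher, 2 lower and 23 in neither direction. The 14 are 35.9% of those tested, where 10.8% of all genes tested were called higher, and the 2 are 5.13%, where 10% were called lower. The median log2 fold change, ADC minus PBS, was 0.22 over the 39 and -0.00 over all genes tested. Because the genes were chosen with earlier results known, these shares and medians are a description and not a test. The groups were fully separate in CPM for 9 higher genes, against 7.29% of all genes, and for 2 lower genes, against 6.95% (14.2% in either direction). Over all genes 1562 were called higher and 1456 lower, 20.8% in all. Scaled to library size alone the split was 1835 to 1063, and 16 of the 39 were then higher and 2 lower. Of the 39 tested genes, 37 reached the filter's minimum in all 10 libraries, and the other two, ISG20 and MX1, missed it in 1 PBS library and were not called. In bulk RNA, fewer cells with a transcript and less of it per cell cannot be told apart.

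**Figure D1:**
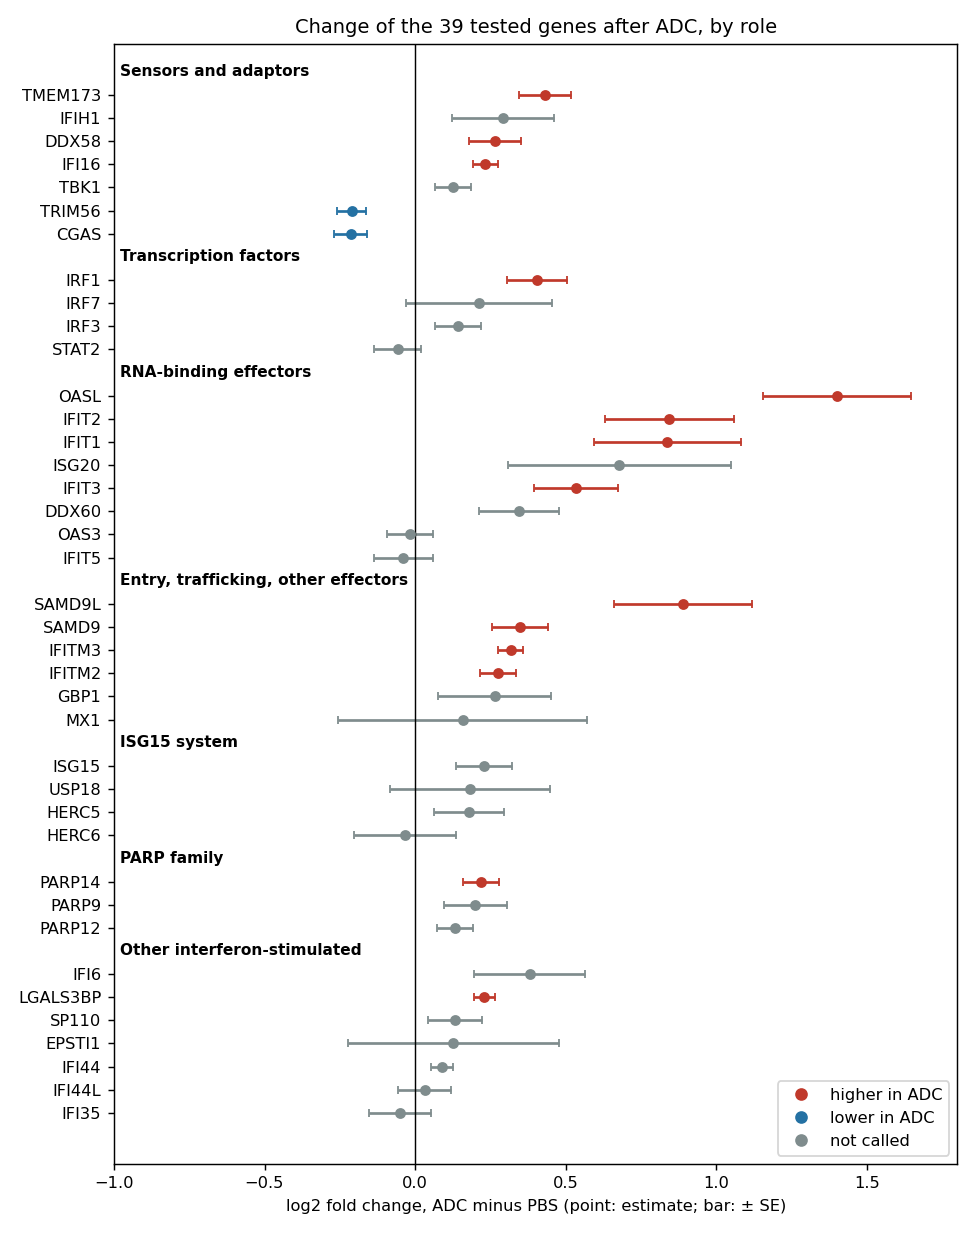
Log2 fold change, ADC minus PBS, of the 39 tested genes on the horizontal axis, grouped by role, with bars of ± SE from the edgeR fit (5 libraries per group). OASL lies furthest right at 1.40, and the 2 genes called lower, TRIM56 and CGAS, lie at -0.21.

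Among the sensors and their adaptors, 3 rose, 2 fell, 2 were not called and 1 was not tested. The STING gene TMEM173, whose product relays the signal of cGAS, had 14.4, 13.9, 12.7, 10.5 and 12.8 CPM in PBS replicates 1 to 5 and 17.4, 16.7, 17, 17.2 and 18.8 CPM in ADC replicates 1 to 5. Each ADC library was above each PBS library, and the gene rose by 0.43 in log2 units (adjusted p = 0.00042, SE 0.09). IFI16, a DNA-binding protein of nucleus and cytosol, had 78.2, 79.6, 74.8, 80.8 and 77.2 CPM in PBS replicates 1 to 5 and 94.7, 88.6, 94.5, 87.8 and 93.5 CPM in ADC replicates 1 to 5. The groups did not overlap, and IFI16 rose by 0.23 in log2 units (adjusted p = 6.4e-05, SE 0.04). DDX58, which encodes the RNA sensor RIG-I, had 17.4, 16.2, 20.5, 22.1 and 18.9 CPM in PBS replicates 1 to 5 and 26.1, 21.5, 24.4, 19.3 and 22.8 CPM in ADC replicates 1 to 5. The highest PBS libraries overlapped the lowest ADC libraries, and the rise of 0.26 in log2 units (adjusted p = 0.028, SE 0.09) was the least stable of the calls. It was lost without PBS replicate 1, 2 or 5 or ADC replicate 1 or 3, at adjusted p of 0.052 to 0.11.

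CGAS, the enzyme that makes the second messenger for STING on binding DNA, moved the other way. It had 49.8, 45.6, 43.9, 48.1 and 43.3 CPM in PBS replicates 1 to 5 and 41.5, 40.6, 39.1, 36.6 and 41.3 CPM in ADC replicates 1 to 5. All ADC libraries lay under all PBS libraries, and CGAS fell by 0.21 in log2 units (adjusted p = 0.0048, SE 0.05). TRIM56, a ubiquitin ligase reported to act on the cGAS-STING pathway, had 57.7, 61, 62.4, 62.4 and 64.5 CPM in PBS replicates 1 to 5 and 55.3, 52, 56.5, 48.9 and 53.5 CPM in ADC replicates 1 to 5. These groups did not overlap either, and TRIM56 fell by 0.21 in log2 units (adjusted p = 0.0018, SE 0.05). Per kilobase of exon CGAS stood at 11.1 ± 0.7 CPM in PBS and TMEM173 at 3.35 ± 0.39 (SD, n = 5).

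TBK1, the kinase shared by the RNA and DNA branches, had 37.4, 38.7, 35.2, 40.3 and 37.3 CPM in PBS replicates 1 to 5 and 43.1, 41.7, 44, 41.9 and 35.1 CPM in ADC replicates 1 to 5. ADC replicate 5 lay just under the lowest PBS library while the other 4 ADC libraries lay above all 5, the log2 fold change was 0.12 (SE 0.06, adjusted p = 0.15), and without that library it was 0.18 at adjusted p = 0.021. The RNA sensor gene IFIH1 had 2.77, 3.32, 2.59, 2.55 and 2.33 CPM in PBS replicates 1 to 5 and 3.82, 3.12, 3.63, 2.92 and 3.08 CPM in ADC replicates 1 to 5. The groups overlapped and it was not called (log2 fold change 0.29, SE 0.17, adjusted p = 0.24). TREX1, the nuclease that clears cytosolic DNA, had 0 counts in all 10 libraries. All of its exonic bases (100%) lie within exons of ATRIP on the same strand, which had 787 to 1116 counts, so its 0 was not readable as a low level.

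Of the transcription factors, IRF1 alone was called among 4 tested. IRF1, which is itself induced by interferons and by NF-kB, had 7.76, 10.2, 7.97, 8.38 and 8.18 CPM in PBS replicates 1 to 5 and 11.2, 10.4, 12.1, 11.9 and 10.6 CPM in ADC replicates 1 to 5. Every ADC library exceeded every PBS library, the highest of which was PBS replicate 2, and IRF1 rose by 0.40 in log2 units (adjusted p = 0.0034, SE 0.10). Of the exonic bases of IRF1, 22% overlap genes on the other strand, and of those of IRF3 19.3% do. IRF3, the latent factor that TBK1 phosphorylates, had 20.2, 23.9, 23.4, 19.9 and 19.2 CPM in PBS replicates 1 to 5 and 26.1, 23, 21.8, 21.6 and 25 CPM in ADC replicates 1 to 5. STAT2, the partner in the interferon-activated complex, had 20.8, 18.3, 19.2, 22.9 and 23.3 CPM in PBS replicates 1 to 5 and 22, 18.6, 20.5, 19 and 20.2 CPM in ADC replicates 1 to 5. Both overlapped between groups and neither was called, with log2 fold changes of 0.14 (SE 0.08, adjusted p = 0.20) and -0.06 (SE 0.08, adjusted p = 0.66).

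IRF7, the interferon-inducible amplifier of the response, was low at 1.81 ± 0.64 and 2.10 ± 0.39 CPM (SD, n = 5) and was not called (0.21, SE 0.24, adjusted p = 0.60). IRF9, the DNA-binding subunit that joins the STAT proteins, had 10, 8, 11, 13 and 5 counts in the PBS libraries and 13, 0, 2, 6 and 0 in the ADC libraries. It was too low to test, and 48.4% of its exonic bases overlap another gene on its strand.

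Of 10 RNA-binding effectors, 4 rose, 4 were not called and 2 were not tested. OASL, an oligoadenylate synthetase-like protein without the synthetase activity that binds RIG-I, had 1.25, 1.07, 1.23, 0.743 and 1.32 CPM in PBS replicates 1 to 5 and 3.73, 1.97, 2.16, 2.85 and 4.21 CPM in ADC replicates 1 to 5. No ADC library fell to the level of a PBS library, and OASL rose by 1.40 in log2 units (adjusted p = 9.2e-05, SE 0.25), a fold of 2.64. Within the ADC group it ran from 1.97 to 4.21 CPM, wider than within PBS. OASL lies on chromosome 12 at 121019111 to 121039242, apart from OAS1, OAS3 and OAS2, which follow each other from 112906777 to 113011723 on the same chromosome.

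Of the oligoadenylate synthetases themselves, OAS3 alone was tested and it was not called. It had a level of 22.2 ± 1.5 CPM in PBS and 21.9 ± 2.2 in ADC libraries (SD, n = 5), with a log2 fold change of -0.02 (SE 0.08, adjusted p = 0.91), whose sign changed under several settings. For OAS1 each PBS library held 0 to 6 counts and each ADC library 1 to 7, and for OAS2 these were 0 to 9 and 0 to 19. Neither was tested. The difference between OASL and OAS3 in their response was not tested.

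The IFIT genes, whose products bind RNA and lie in 1 cluster on chromosome 10 (89283694 to 89421001), rose in 3 of 4 cases. IFIT1, which binds RNA caps that lack a methyl mark, had 0.892, 2.05, 1.02, 1.49 and 1.8 CPM in PBS replicates 1 to 5 and 2.05, 3.44, 2.66, 2.03 and 2.77 CPM in ADC replicates 1 to 5. The groups met at about 2.03 to 2.05 CPM, IFIT1 rose by 0.84 in log2 units (adjusted p = 0.013, SE 0.24), and the call was lost without ADC replicate 2 (0.71, adjusted p = 0.057). IFIT2 had 2.05, 1.63, 1.74, 1.34 and 1.59 CPM in PBS replicates 1 to 5 and 4.11, 2.68, 2.16, 2.4 and 3.68 CPM in ADC replicates 1 to 5. Its groups did not overlap, with ADC replicates 1 and 5 highest, and it rose by 0.84 in log2 units (adjusted p = 0.0049, SE 0.21). IFIT3, a partner that stabilises IFIT1, had 4.46, 5.28, 6.81, 5.2 and 3.83 CPM in PBS replicates 1 to 5 and 7.2, 7.38, 5.94, 7.66 and 8.83 CPM in ADC replicates 1 to 5. PBS replicate 3 lay above ADC replicate 3, and IFIT3 rose by 0.53 in log2 units (adjusted p = 0.0055, SE 0.14). IFIT5 had the highest level per kilobase of the cluster in PBS, 2.74 ± 0.19 CPM against 1.94 ± 0.42 for IFIT3, 0.407 ± 0.063 for IFIT2 and 0.314 ± 0.107 for IFIT1 (SD, n = 5). It was not called (-0.04, SE 0.10, adjusted p = 0.83). The ISRE core was present in the promoter windows of IFIT1, IFIT3 and IFIT5, and its part in these values was not tested. Reads can be shared among such paralogs.

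DDX60, a helicase of the RIG-I branch, had 5.08 ± 0.74 CPM in PBS and 6.45 ± 0.96 in ADC libraries (SD, n = 5) and was not called (0.34, SE 0.13, adjusted p = 0.063). It passed when scaled to library size alone (adjusted p = 0.047) and without PBS replicate 2 (adjusted p = 0.049). The exonuclease gene ISG20 had 0.796 ± 0.471 and 1.28 ± 0.35 CPM and was not called (0.68, SE 0.37, adjusted p = 0.21). Its PBS libraries held 5 to 50 counts and its ADC libraries 26 to 59, so the groups overlapped.

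**Figure D2:**
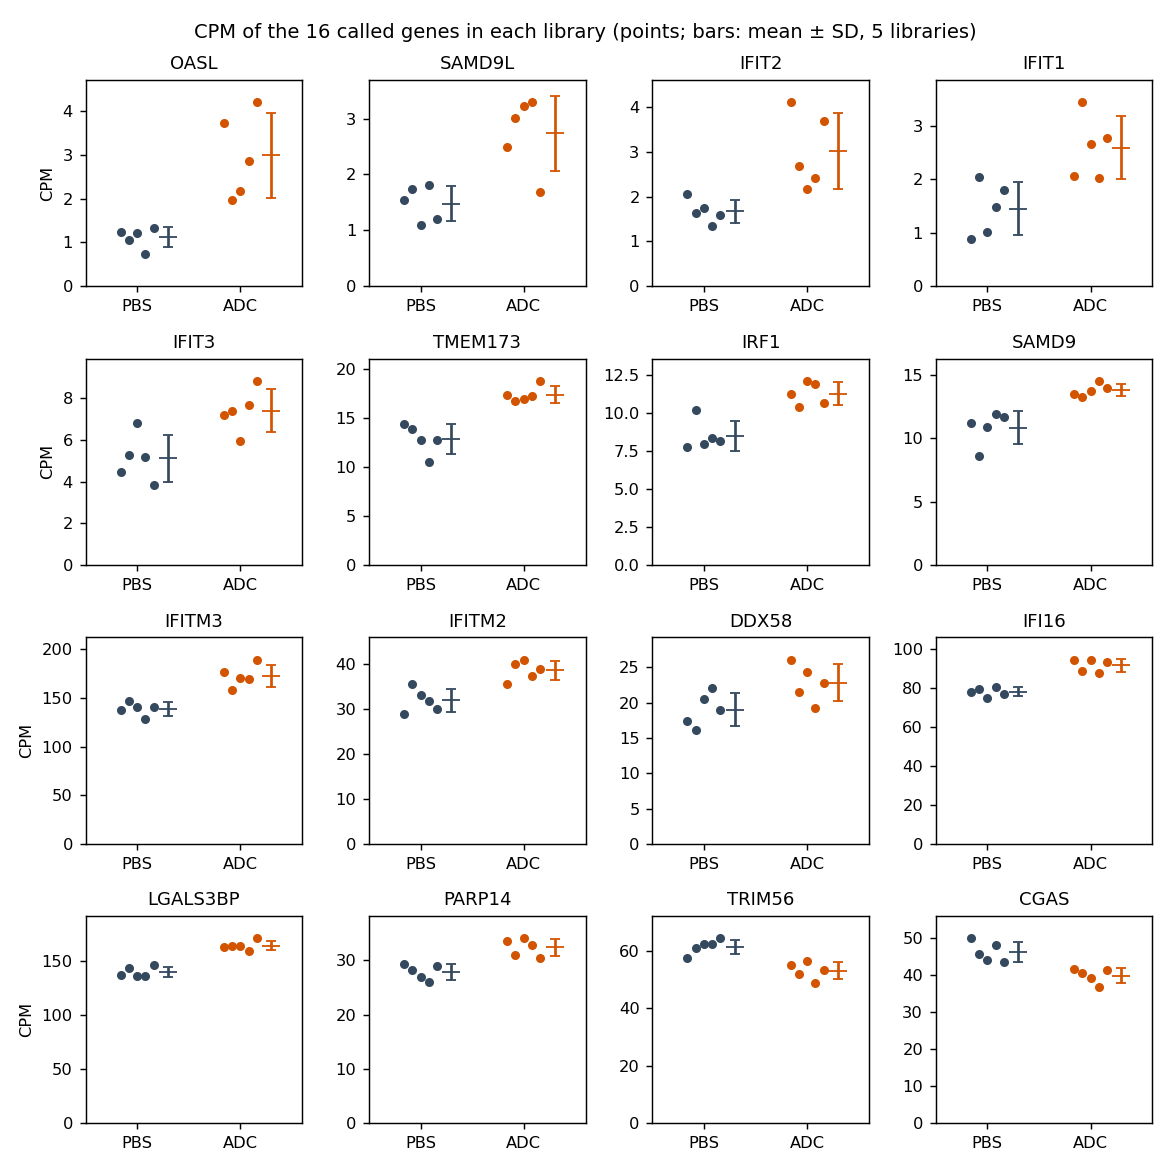
CPM of the 16 called genes in each of 5 PBS and 5 ADC libraries, each panel with its own axis from 0, and bars of mean ± SD. In 11 panels the points of the groups do not overlap, and the vertical gap is widest relative to the level for OASL.

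Of 13 effectors that act on viral entry, trafficking, translation or replication, 4 rose, 2 were not called and 7 were not tested. IFITM3 blocks the fusion of virus with endosomes and had the highest level per kilobase of all 52 genes, at 103 ± 5 CPM in PBS. It had 137, 147, 140.2, 128 and 140.5 CPM in PBS replicates 1 to 5 and 176, 158, 170.3, 169 and 189 CPM in ADC replicates 1 to 5. The groups were separate, and IFITM3 rose by 0.32 in log2 units (adjusted p = 1.2e-06, SE 0.04). Its neighbour IFITM2 had 28.9, 35.6, 33, 31.6 and 30.1 CPM in PBS replicates 1 to 5 and 35.6, 40, 40.9, 37.4 and 38.8 CPM in ADC replicates 1 to 5. PBS replicate 2 and ADC replicate 1 were level, and IFITM2 rose by 0.28 in log2 units (adjusted p = 0.0013, SE 0.06). IFITM1, the third gene of this cluster on chromosome 11, held 0 to 2 counts in each PBS library and 0 to 4 in each ADC library. Of its exonic bases 32.5% overlap annotated exons of IFITM2 on the same strand, and 21.3% of those of IFITM3 overlap a gene on the other strand, so values within this family are uncertain.

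SAMD9 and SAMD9L, neighbours on chromosome 7 that restrain translation and poxvirus replication, both rose. SAMD9 had 11.2, 8.62, 10.9, 11.9 and 11.7 CPM in PBS replicates 1 to 5 and 13.5, 13.2, 13.7, 14.5 and 14 CPM in ADC replicates 1 to 5. Its groups did not overlap, with PBS replicate 2 lowest, and it rose by 0.35 in log2 units (adjusted p = 0.0067, SE 0.09). SAMD9L had 1.55, 1.75, 1.09, 1.8 and 1.21 CPM in PBS replicates 1 to 5 and 2.49, 3.01, 3.22, 3.3 and 1.68 CPM in ADC replicates 1 to 5. ADC replicate 5 lay within the PBS range while the other 4 ADC libraries lay above it, and SAMD9L rose by 0.89 in log2 units (adjusted p = 0.0052, SE 0.23). Per kilobase SAMD9 stood at 1.58 ± 0.19 CPM in PBS and SAMD9L at 0.207 ± 0.045 (SD, n = 5), so the lower of the pair had the larger fold.

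MX1, a GTPase that is among the most used markers of an interferon response, had 0.535, 0.356, 0.273, 0.53 and 0.383 CPM in PBS replicates 1 to 5 and 0.521, 0.41, 0.322, 0.515 and 0.561 CPM in ADC replicates 1 to 5. These are 8 to 18 counts per library, the groups overlapped, and MX1 was not called (0.16, SE 0.41, adjusted p = 0.83). The guanylate-binding protein gene GBP1 had 2.29 ± 0.33 and 2.74 ± 0.35 CPM and was not called (0.26, SE 0.19, adjusted p = 0.36). The 7 others, IFITM1, MX2, BST2, RSAD2, CMPK2, GBP2 and TRIM22, had at most 19 counts in any library. RSAD2, the antiviral radical-SAM enzyme viperin, had 2 counts in PBS replicate 4 and 0 in the other 9 libraries. MX2 had 1 and 2 counts in ADC replicates 1 and 2 and 0 elsewhere.

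The ubiquitin-like modifier ISG15, its ligase HERC5, its protease USP18 and HERC6, a relative of HERC5, were all tested. None passed at adjusted p under 0.05. ISG15 had 12.8, 11.3, 11.4, 11 and 14.2 CPM in PBS replicates 1 to 5 and 15, 13.6, 12.4, 14.5 and 15.8 CPM in ADC replicates 1 to 5. PBS replicates 1 and 5 lay among the ADC values, and the log2 fold change was 0.23 (SE 0.09, adjusted p = 0.078). Leaving out PBS replicate 5 gave 0.29 at adjusted p = 0.033, and leaving out ADC replicate 3 gave 0.28 at adjusted p = 0.046. At 12.9 ± 1.4 CPM per kilobase in PBS, ISG15 was the sixth of the 52 genes by level. USP18 (0.18, SE 0.26), HERC5 (0.18, SE 0.12) and HERC6 (-0.03, SE 0.17) had smaller estimates relative to their errors.

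Of the ADP-ribosyltransferase genes, PARP14 was called. It had 29.3, 28.2, 26.9, 26 and 29 CPM in PBS replicates 1 to 5 and 33.6, 31.1, 34.1, 32.8 and 30.5 CPM in ADC replicates 1 to 5. Its groups did not overlap, and PARP14 rose by 0.22 in log2 units (adjusted p = 0.0085, SE 0.06). PARP9 (0.20, SE 0.10, adjusted p = 0.18) and PARP12 (0.13, SE 0.06, adjusted p = 0.12) were not called. PARP9 and PARP14 lie near each other on chromosome 3, at 122527924 to 122564577 and 122680618 to 122730840.

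Of 9 further interferon-stimulated genes 1 rose, 6 were not called and 2 were not tested. LGALS3BP, a secreted galectin-binding glycoprotein, had 138, 144, 136, 136 and 147 CPM in PBS replicates 1 to 5 and 163, 164, 164, 159 and 171 CPM in ADC replicates 1 to 5. Every ADC library was above every PBS library, and LGALS3BP rose by 0.23 in log2 units (adjusted p = 1.2e-05, SE 0.03). IFI44, a cytoplasmic protein of uncertain function, had 137, 137, 135, 126 and 132 CPM in PBS replicates 1 to 5 and 140.1, 142, 144, 135 and 149 CPM in ADC replicates 1 to 5. At 65.5 ± 2.2 CPM per kilobase in PBS it was second to IFITM3, while its neighbour IFI44L stood at 1.32 ± 0.11 (SD, n = 5). IFI44 was not called (0.09, SE 0.04, adjusted p = 0.080), but leaving out ADC replicate 4 gave adjusted p = 0.032 and scaling to library size alone gave 0.022.

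The other tested genes of this group were IFI6 (0.38, SE 0.18, adjusted p = 0.15), SP110 (0.13, SE 0.09), EPSTI1 (0.13, SE 0.35), IFI44L (0.03, SE 0.09) and IFI35 (-0.05, SE 0.10). IFI27, a widely used marker of interferon exposure, held 4 to 23 counts in each PBS library and 2 to 19 in each ADC library and was not tested. XAF1 had 10 and 2 counts in PBS replicates 1 and 2, 2 in ADC replicate 5 and 0 in the other 7 libraries, and 38.3% of its exonic bases overlap a gene on the other strand.

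**Figure D3:**
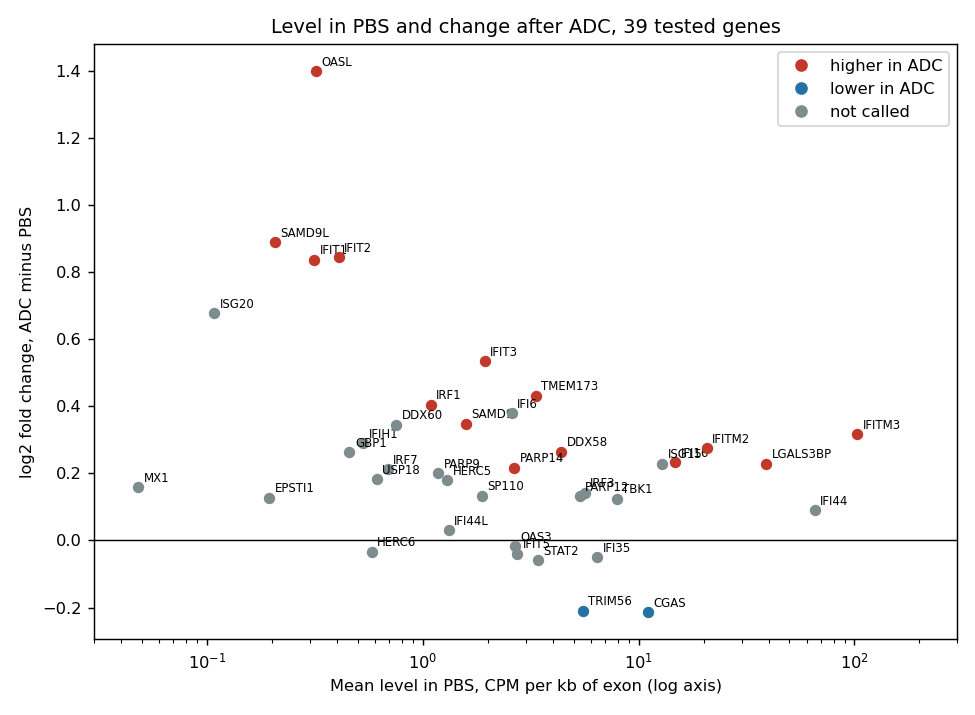
Mean PBS level in CPM per kb of exon (log axis) against log2 fold change, ADC minus PBS, for the 39 tested genes, coloured by call. OASL, SAMD9L, IFIT1 and IFIT2 lie high at under 0.5 CPM per kb, and IFITM3 and IFI44 lie furthest right at 103 and 65.5.

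Mean levels in PBS ran from 103 CPM per kilobase for IFITM3 to 0 for MX2 and TREX1. IFITM3, IFI44, LGALS3BP, IFITM2, IFI16, ISG15 and CGAS stood above 10 CPM per kilobase, and 14 genes, the 13 untested and MX1, stood under 0.1. The log2 fold changes above 0.8 (OASL, SAMD9L, IFIT2 and IFIT1) all belonged to genes under 0.5 CPM per kilobase, while the 10 other genes called higher had log2 fold changes from 0.22 to 0.53. Their standard errors differed in the same way, at 0.21 to 0.25 for the 4 and 0.03 to 0.14 for the 10. The other tested genes under 0.5 CPM per kilobase were not called, at ISG20 0.68, GBP1 0.26, MX1 0.16 and EPSTI1 0.13. Their standard errors were 0.19 to 0.41. At such errors only larger folds pass, so called genes alone cannot show whether genes of low level changed more.

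**Figure D4:**
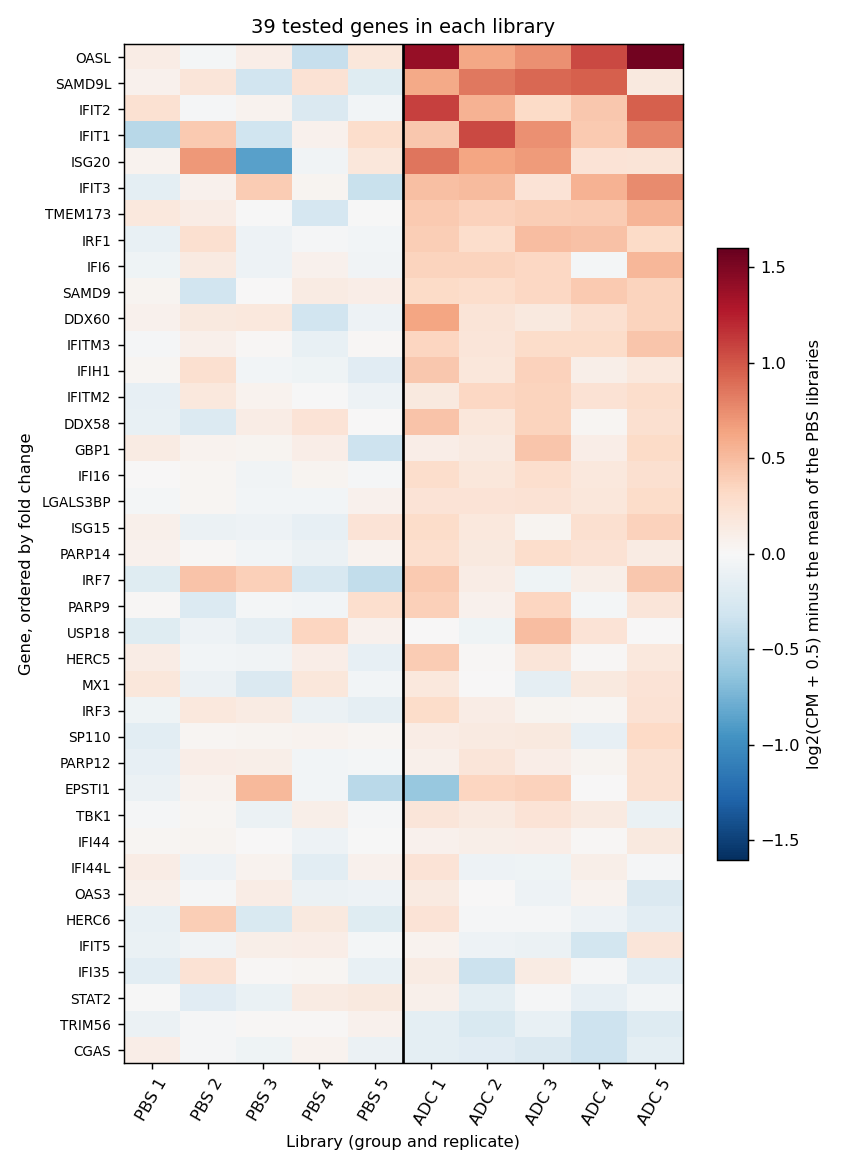
Log2(CPM + 0.5) of each tested gene (vertical axis, ordered by fold change) in each library (horizontal axis), minus the mean of the PBS libraries, in colour. The genes at the top are redder in the ADC columns, up to 1.55 for OASL in ADC replicate 5, and paler entries such as SAMD9L in ADC replicate 5 interrupt this.

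The libraries of each group were alike in the average of the 39 genes. Relative to the PBS mean, the mean log2(CPM + 0.5) was -0.03 to 0.07 in the PBS libraries and 0.16 to 0.30 in the ADC libraries, lowest in ADC replicate 4 and highest in ADC replicate 1. In each ADC library 30 to 36 of the 39 genes were above their PBS mean, against 15 to 24 in each PBS library. This is a description of genes chosen with earlier results known and has no test.

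Upstream of these genes, no interferon transcript reached the filter. Of 21 interferon genes, 20 had 0 counts in all 10 libraries, type I, II and III among them, and the exception IFNE held 0 to 12 counts in each PBS library and 2 to 10 in each ADC library. Of 16 genes of receptors and signalling, 11 were tested, with a median log2 fold change of -0.06. Where 10.8% of all genes tested were called higher and 10% lower, 0 of the 11 rose and 2 fell. One of these was IFNAR1, a subunit of the type I receptor, which went from 73.2 ± 3.2 to 65.7 ± 1.2 CPM (SD, n = 5) and fell by 0.16 (adjusted p = 0.0081, SE 0.04). The other subunit gene, IFNAR2, had 4 to 27 counts per library, and 44.2% of its exonic bases overlap a gene on its strand and 39.1% a gene on the other, so its level was uncertain.

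Among 22 further sensors and adaptors, 15 were tested, of which TANK rose and PQBP1 fell, with a median of 0.00. TANK, a scaffold of TBK1, went from 17.2 ± 1.1 to 24.5 ± 1.3 CPM and rose by 0.51 (adjusted p = 3.0e-06, SE 0.07), and PQBP1, a cofactor of cGAS, fell by 0.22 (SE 0.06, adjusted p = 0.0093). Of 15 genes that clear or edit nucleic acid, 14 were tested, and PLD3 (0.39, SE 0.07) and DNASE2 (0.28, SE 0.10), both nucleases of lysosomes, rose while the ribonuclease H2 subunit RNASEH2B (-0.23, SE 0.07) fell. The median of this list was -0.02. With 1 of 15 and 2 of 14 genes called higher, both lists lay near the share over all genes tested. That share was 10.8% called higher and 10% called lower.

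Of 47 other interferon-stimulated genes, 39 were tested, 13 rose, 3 fell and 23 were not called, with a median log2 fold change of 0.13. Over all genes tested 10.8% were called higher and 10% lower. This list too was chosen with earlier results known, so its shares are a description. UBA7 and UBE2L6, the activating and conjugating enzymes for ISG15, went from 1.66 ± 0.39 to 3.27 ± 0.98 CPM and from 3.6 ± 0.37 to 4.94 ± 0.34 CPM (SD, n = 5). They rose by 0.97 (adjusted p = 0.0018, SE 0.22) and 0.45 (adjusted p = 0.017, SE 0.14). PSMB9 and PSMB8, immunoproteasome subunits in the antigen processing genes, rose by 0.82 (adjusted p = 5.1e-06, SE 0.12) and 0.20 (adjusted p = 0.040, SE 0.07). Of the exonic bases of PSMB8, 20.6% overlap genes on the other strand, PSMB9 among them. SLFN5 (0.27, SE 0.05), PSME1 (0.29, SE 0.05), PARP10 (0.35, SE 0.09) and RNF213 (0.23, SE 0.06) also rose. The 3 that fell were TRIM14 (-0.23, SE 0.04), PLSCR1 (-0.15, SE 0.05) and the antiviral zinc finger gene ZC3HAV1 (-0.12, SE 0.04).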

How the data were processed

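Poly(A) RNA was sequenced from 10 libraries, grouped by the treatment labels as 5 PBS and 5 ADC. The authors deposited raw counts for 58735 genes. TopHat2, HISAT and HISAT2 appear in the submitters' processing notes with no stated role, and hg38 as the build. The counter and its strand setting: not given in the sources used here. Genes that overlap on either strand can therefore share or lose reads. The overlap is not given above for every gene. It was 20.9% for SP110 and 14.7% for TBK1 on the other strand, and 8.68% for IFIT2 on its own. All 58735 identifiers were found in GENCODE release 29, where the 52 genes had the same start and end, and the deposited gene length equalled the exon length of each (unit other, in bases, per the file headers). Even numbers made up 65.4% to 67.3% of the counts between 2 and 21, but 49.0% to 50.6% of those of at least 1000, so both mates of a read pair may have been counted and limits from low counts may be too small. No library repeated another of its group, since chi-square over genes was 5.18 to 16.5 times its degrees of freedom in each pair.

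Counts were filtered with filterByExpr (minimum count 10, minimum total 15), scaled with TMM and tested with edgeR 4.0.16 (R 4.3.3), quasi-likelihood, two-sided, Benjamini-Hochberg over 14504 genes, threshold 0.05. Each adjusted p comes from this test unless another is named. The SE is the absolute log2 fold change over the square root of F. The procedure was tested on simulated data. The 52 genes, their roles and all gene lists were chosen with earlier results of these data known. By rule, library values were given for every called gene and a list of 11 genes, some of them called, and genes of the other lists were named where called, though not every one is reported here. Outside the rule, chosen after their values were seen, are the library values of IFI44 and the names of the target, the markers, IFNE, IFNAR2 and the overlapping ATRIP. The pseudocount of library averages was 0.5. Alternatives were DESeq2 1.42.0, limma-voom (limma 3.58.1), library size alone, no filter, a mean of at least 1 CPM, the replicate number as a block, halved counts, and leaving out each library. No set was tested as a set.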

Additional observations from a re-analysis of the deposited data

Results flagged for a closer look

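In each group of 5 libraries, the library furthest from the rest was compared with the range of its group for the 39 tested genes. Of 78 groups looked at, 4 held a library that stood apart by Dixon's criterion (gap over range above 0.71), and chance alone flags about 1 in 20. TBK1 was low in ADC replicate 5, at 35.1 CPM against 41.7 to 44.0 CPM in the other 4 libraries. IRF1 was high in PBS replicate 2, at 10.2 CPM against 7.76 to 8.38 CPM. GBP1 was low in PBS replicate 5, at 1.71 CPM against 2.35 to 2.53 CPM. SP110 was low in PBS replicate 1, at 11.4 CPM against 13.2 to 13.4 CPM. The 4 libraries were all different ones.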

How the results depend on the processing

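Under 17 alternatives, 14 of the 16 called genes kept their call and direction, the exceptions being DDX58 and IFIT1. The 14 genes called higher became 13 to 15 and the 2 called lower stayed 2 when single libraries were left out, and all genes called moved from 3018 to between 2491 and 2980. With library size alone 16 were higher and with every other full-data alternative 14. Of 659 values of single genes, 6 lost and 7 gained a call. The sign changed in 14 values, all of genes that were not called. These were OAS3 with library size alone (0.00546) and, when single libraries were left out, OAS3 (-0.0608 to 0.0334), IFIT5 (-0.100 to 0.0247), HERC6 (-0.108 to 0.0978), IFI35 (-0.0995 to 0.0222), IFI44L (-0.0217 to 0.0628) and EPSTI1 (-0.0178 to 0.358). The cause of these changes was not tested. Standard errors were 0.24 to 0.41 for ISG20, MX1, EPSTI1, IRF7 and USP18, which were not called. For the called genes OASL, IFIT1, SAMD9L and IFIT2 they were 0.21 to 0.25. The part of depth in this was not tested. Low counts kept 13 genes out of the main test, and for TREX1 of these the 0 was not readable.

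Groups share replicate numbers, but same-numbered libraries deviated together little (correlations of -0.01 to 0.04, and none was the best match of its number). With the replicate block 3152 genes were called, 14 of the 52 genes higher and 2 lower.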

Other observations

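Of the 13 genes too low for the main test, all but TREX1 held a few counts. They are given here as sums over 5 libraries, since total counts were similar in both groups. With no filter on low counts, 51 of the 52 genes were tested, and the calls were the same 14 higher and 2 lower. None of the 13 was called there. TRIM22, a ubiquitin ligase with antiviral activity, summed to 19 in PBS and 52 in ADC libraries, and the tethering factor BST2 had 14 and 41. GBP2 had 4 and 23 counts, CMPK2 had 6 and 16, OAS2 had 23 and 45, and IFITM1 had 4 and 12. IRF9 had 47 and 21 counts, IFI27 had 57 and 45, XAF1 had 12 and 2, and OAS1 had 13 and 13. MX2 had 0 and 3, and RSAD2 had 2 and 0. TREX1 had 0 counts throughout. TRIM22 overlapped between groups, with 0 to 8 counts per PBS library and 4 to 19 per ADC library. BST2 had 0 to 7 and 4 to 15 counts. The counts of the groups overlapped for all 13 genes.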
